A study of Canis lupus familiaris with 45 samples.

Results

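The genes described here carry fatty acids from the blood into the fat cell and activate them. They are LPL, GPIHBP1, CD36, FABP4, FABP5, SLC27A1, SLC27A4, ACSL1, ACSL3 and ACSL4, a set put together by known roles. The array holds 19 probe sets that list 1 of these 10 genes and no other, of 43035 probe sets in all. All 19 were tested, among 22690 probe sets that represent 9113 named genes. There is 1 more probe set that lists FABP4 beside other genes, and it was not used. Each gene's brightest probe set, by its average on all arrays, is given first and called the main probe set. ACSL3 had 5 probe sets, ACSL1 and SLC27A1 had 3 each, FABP5 had 2 and the other genes had 1 each.

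Lipoprotein lipase, LPL, frees fatty acids from the triglycerides of circulating lipoproteins. GPIHBP1 is the endothelial protein that brings LPL to the capillary surface and anchors it there. CD36 and the transport proteins FATP1 and FATP4, encoded by SLC27A1 and SLC27A4, help fatty acids across the cell membrane, and the FATP proteins also activate very long fatty acids. FABP4 and FABP5 carry fatty acids through the cytosol. Long-chain acyl-CoA synthetases, among them ACSL1, ACSL3 and ACSL4, attach coenzyme A to a fatty acid, a step it must pass before it can be esterified into triglyceride or oxidised. In white fat most of this traffic serves storage.

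Subcutaneous fat was taken from 9 intact female beagles, 4 years old, after an overnight fast at weeks 0, 4, 8, 12 and 24, with 1 array per dog and week. Dogs 2, 5, 6, 7 and 8 ate ad libitum once the week-0 sample had been taken (n = 5), and dogs 1, 3, 4 and 9 were controls given the amount that held their starting weight (n = 4). All dogs ate the same commercial food and were allotted to the groups at random. The week-0 samples of both groups therefore precede the treatment. Values are the authors' GCRMA expression values, read here as log2, and a value above 4 was taken as above background. A difference of 1 on this scale is a doubling. Levels of different probe sets are not compared, because probes differ in how brightly they bind. In whole tissue, fewer cells of a type and less RNA per cell cannot be told apart.

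Subcutaneous fat is the labelled tissue, and all 7 measured adipocyte markers were above 4 on every array. Of the 45 arrays, 10 also carried skeletal muscle transcripts, with a mean over 12 muscle markers of 8.66 to 15.13, against 3.60 to 5.97 on the other 35. They included 3 of 5 ad libitum and 2 of 4 control arrays at week 0, and 0 of 5 ad libitum and 2 of 4 control arrays at week 24. Actin signal at the 3' end minus that at the 5' end, which grows as RNA degrades, was 3.51 ± 0.91 in ad libitum dogs (SD, n = 5) and 4.79 ± 1.20 in control dogs (SD, n = 4) at week 24. The week-24 array of control dog 4 stood apart by its epithelial markers, with a mean of 9.13 against at most 4.08 on all other arrays. A check on 100 probe sets that tell the dogs apart placed 42 of 45 arrays with their labelled dog. Dog 9 was the match (r = 0.913) of the array that the labels give to ad libitum dog 5 at week 8, and dog 5 that of the array given to control dog 9 (r = 0.711). The week-0 array of ad libitum dog 2 was the other one, with only a weak match to dog 3 (r = 0.545). The labels were kept, and each week-8 difference described for a gene is given both with those arrays and without them.

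At the main probe sets 1 of the 10 genes passed the test between the feeding groups at week 24, ACSL1, and it was higher in ad libitum dogs. This call was lost with the actin measure in the fit, without the arrays with muscle transcripts and with each week fitted alone. It was also lost without ad libitum dog 2, 6 or 7. Over all probe sets tested, 5.46% passed, 3.76% as higher and 1.69% as lower. The median difference over the 10 genes was 0.30, beside 0.008 over all probe sets tested, and 7 of the 10 genes had a positive difference. Among those 7, the 2 control arrays without muscle transcripts averaged above the ad libitum dogs for LPL, GPIHBP1 and FABP5. For CD36, FABP4 and ACSL1 they averaged below. At weeks 0, 4, 8 and 12 the test passed 0 of the 10 genes, with 0%, 0.0132%, 1.42% and 0.00441% of all probe sets passing. Unadjusted p-values under 0.05 were found for 312 probe sets at week 0, 2061 at week 4, 5669 at week 8 and 2510 at week 12. A joint test of whether the course over the weeks differed between the groups passed 0 of 10 genes, against 0.0132% of all probe sets, and the lowest adjusted p among the 19 probe sets was 0.167 (limma's moderated F test with Benjamini-Hochberg adjustment).

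**Figure D1:**
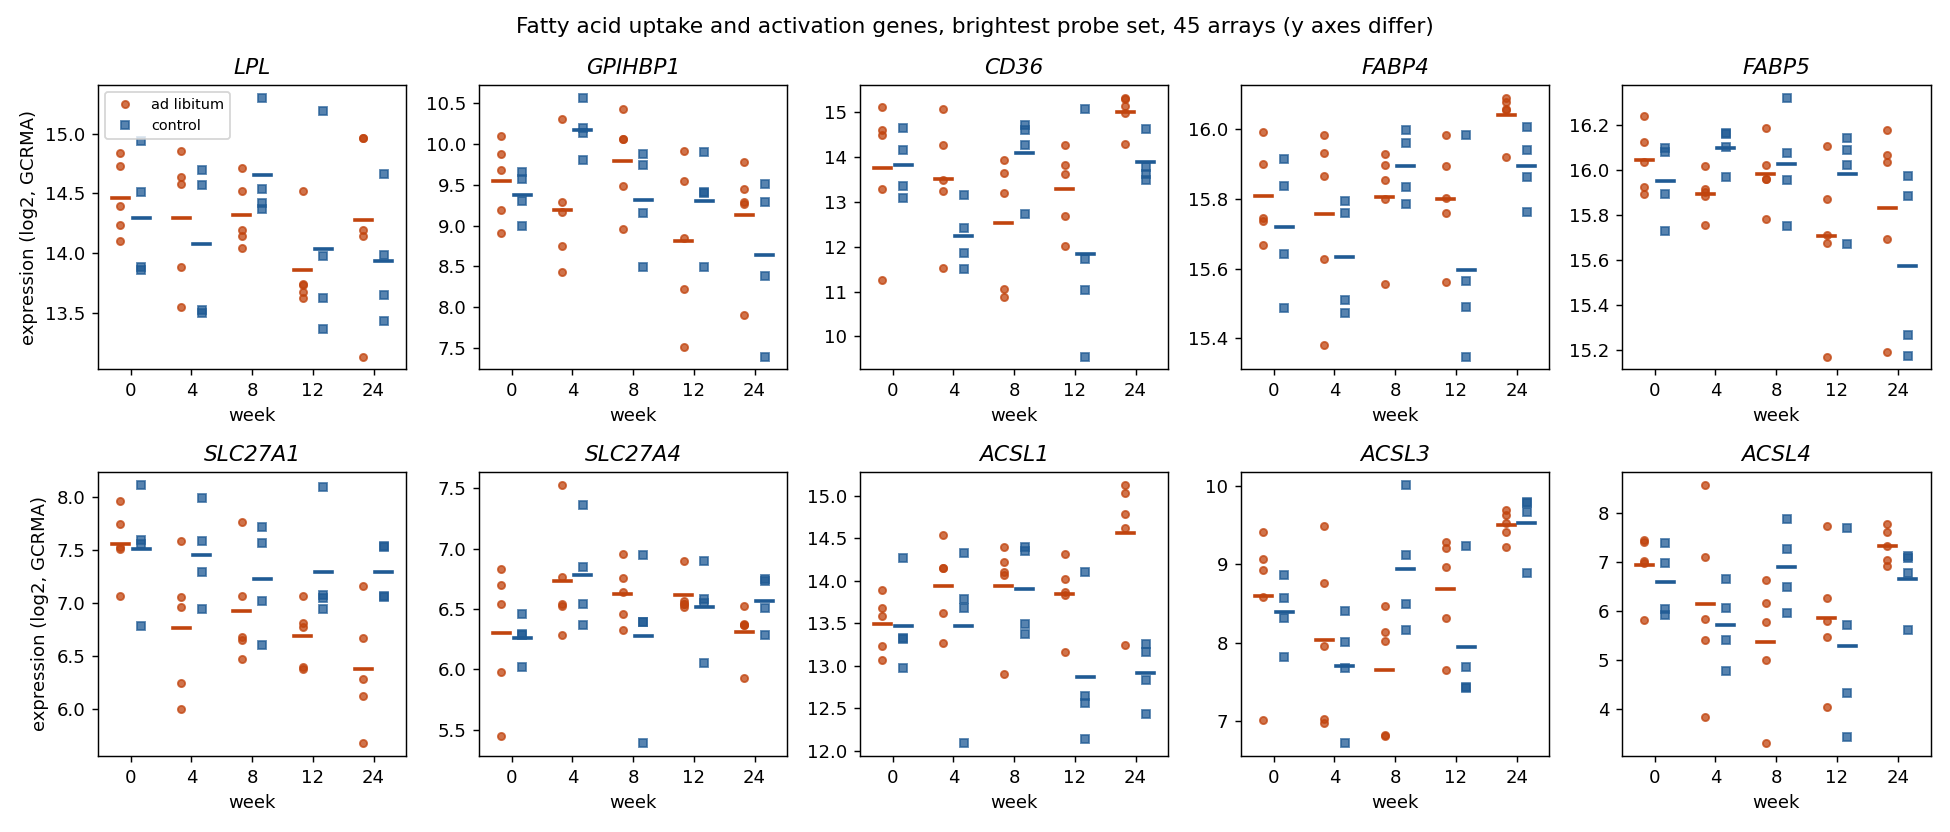
Log2 expression of the main probe set of each of the 10 genes by week, with ad libitum dogs (n = 5) and control dogs (n = 4) drawn apart, each point 1 array and lines through the group means. The ACSL1 groups part at week 24 (means 14.56 in ad libitum and 12.92 in control dogs), FABP4 stays between 15.35 and 16.09 throughout, and CD36 spreads from 9.55 to 15.32.

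LPL, the lipase itself, ranged from 13.13 to 15.30 over the 45 arrays. At week 24 it measured 14.96, 13.13, 14.97, 14.14 and 14.20 in ad libitum dogs 2, 5, 6, 7 and 8, against 13.98, 13.65, 13.43 and 14.66 in control dogs 1, 3, 4 and 9. The groups overlapped, with dog 5 below every control dog and dogs 2 and 6 above all of them. The difference was 0.35 (SE 0.36, 95% interval -0.37 to 1.07, adjusted p = 0.594 by limma). At weeks 0 to 12 it lay between -0.37 and 0.14, and no adjusted p was under 0.518. Without the doubted arrays of week 8 the difference in that week was -0.34, against -0.37 with them.

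GPIHBP1, the anchor of LPL, ranged from 7.39 to 10.57. At week 4 it measured 8.75, 9.29, 10.31, 9.17 and 8.43 in ad libitum dogs 2, 5, 6, 7 and 8, against 10.20, 10.14, 10.57 and 9.81 in control dogs 1, 3, 4 and 9. Ad libitum dog 6 lay among the controls and the other 4 below all of them. The difference of -0.97 was the largest in size among the 10 genes at week 4 apart from CD36 and did not pass (SE 0.48, adjusted p = 0.548). In that week the actin measure was 1.75 ± 0.24 in ad libitum dogs (SD, n = 5) and 3.00 ± 0.27 in control dogs (SD, n = 4), with no overlap, and no laboratory batch held both groups. With the actin term in the fit the difference was -0.98. The part of the batch cannot be told apart from that of feeding. At week 24 GPIHBP1 measured 9.78, 7.90, 9.28, 9.26 and 9.45 in ad libitum dogs, against 9.28, 7.39, 8.38 and 9.50 in control dogs. The lowest values were those of ad libitum dog 5 and control dog 3, the dogs whose arrays were also lowest in adipocyte markers that week. Control dogs 3 and 4, at 7.39 and 8.38, were those whose arrays carried muscle transcripts. The other 2 control arrays averaged 9.39, above the ad libitum mean of 9.13. With all dogs of both groups the week-24 difference was 0.50 (SE 0.41, adjusted p = 0.493). At week 8 it was also 0.50, or 0.26 without the doubted arrays.

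Around LPL, a list of 18 partners and regulators had 12 genes above background. At week 24, 3 of the 12 were higher in ad libitum dogs and 0 lower, where 3.76% of all probe sets passed as higher and 1.69% as lower, and the list's median difference was -0.07. APOC3, an apolipoprotein that inhibits LPL, averaged 10.77 in ad libitum and 7.60 in control dogs (difference 3.17, SE 0.76, adjusted p = 0.0129). APOE, the apolipoprotein by which remnants are taken up, averaged 15.04 in ad libitum and 13.95 in control dogs (difference 1.09, SE 0.25, adjusted p = 0.00989). LMF1, the chaperone that LPL needs to fold, averaged 7.95 in ad libitum and 6.66 in control dogs (difference 1.29, SE 0.29, adjusted p = 0.00952). All 3 lost the call when the 10 arrays with muscle transcripts were left out, with the actin term (adjusted p = 0.207, 0.207 and 0.267 for APOC3, APOE and LMF1), with each week fitted alone and without ad libitum dog 2, APOC3 also without control dog 3 and APOE without control dog 4. ANGPTL4, which inactivates LPL, differed by 0.15 (adjusted p = 0.857), and APOC2, its activator, by -0.04 (adjusted p = 0.942). Against week 0, the ad libitum dogs were higher in APOE at week 24 (0.89, adjusted p = 0.0287) and lower in APOC2 (-0.68, adjusted p = 0.0389), where 2.38% of all probe sets passed as higher and 2.4% as lower. Each is also a change of batch. The APOE call held in 12 of 20 other settings and was lost with the muscle mean in the fit and without ad libitum dog 2, 5, 6, 7 or 8. The APOC2 call held in 9 of 19 and was lost with quantile normalization, with the actin term and without dog 3, 5, 6, 7, 8 or 9. Both were lost with no filter and without the muscle arrays. In control dogs LMF1 was lower and LRP1 higher at week 24 than at week 0, also changes of batch. Over all probe sets 4.71% passed as lower and 3.21% as higher there. Each call held in 16 of 20 other settings, at -1.45 to -0.71 for LMF1 and 0.80 to 1.17 for LRP1. The LMF1 and LRP1 calls were lost with the actin term, without the muscle arrays and without control dog 3 or 9.

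CD36, the fatty acid translocase, was among the most variable transcripts. Its range over the 45 arrays was 9.55 to 15.32, and its SD was larger than that of 96.0% of the probe sets tested. At week 8 it measured 13.19, 11.05, 10.88, 13.93 and 13.65 in ad libitum dogs 2, 5, 6, 7 and 8, against 12.74, 14.28, 14.71 and 14.60 in control dogs 1, 3, 4 and 9. Dogs 5 and 6 were low, and the other 3 ad libitum dogs lay within the control range. The dog 6 array was of laboratory batch 5, whose 3 ad libitum arrays of weeks 4 to 12 read 10.88 to 12.01. The 2 control arrays of that batch averaged 14.38. Between the groups at week 8 the difference was -1.64 (95% interval -3.25 to -0.02, adjusted p = 0.196), and -0.57 (adjusted p = 0.813) without the doubted arrays of dogs 5 and 9.

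At week 24 CD36 measured 15.29, 14.30, 14.99, 15.15 and 15.32 in ad libitum dogs, against 13.79, 13.49, 13.63 and 14.63 in control dogs. Only ad libitum dog 5 and control dog 9 kept the groups from separating. The difference was 1.13 (95% interval -0.48 to 2.73, 2.18-fold, adjusted p = 0.413), with 5 of 5 ad libitum dogs above the control mean. At week 12 it was 1.69 in the same direction (adjusted p = 0.452), again with 5 of 5 dogs, while the control dogs spread from 9.55 in dog 3 to 15.07 in dog 1. The sign thus differed between week 8 and weeks 12 and 24, and none of the 3 differences passed.

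SLC27A1, which encodes FATP1, was lower at week 24 than at week 0 in the ad libitum dogs. Its main probe set measured 5.68, 7.16, 6.28, 6.67 and 6.12 at week 24 in dogs 2, 5, 6, 7 and 8, against 7.53, 7.06, 7.96, 7.74 and 7.50 in the same dogs at week 0. Dogs 2, 6, 7 and 8 were lower at week 24 than at week 0, by 1.07 to 1.84, whereas dog 5 was higher by 0.10. The largest fall, in dog 2, rests on the week-0 array that matched its labelled dog poorly (r = 0.31). The fitted change was -1.16 (SE 0.32, 95% interval -1.81 to -0.51, adjusted p = 0.0316 by limma), a level 0.447 times that of week 0. SLC27A1 was the 1 gene of 10 whose main probe set passed for this change, where 4.78% of all probe sets passed and 2.4% passed as lower. The call was lost without any 1 of ad libitum dogs 2, 6, 7 and 8 or control dog 9, which left changes of -0.98 to -1.16. For the changes from week 0 to weeks 4, 8 and 12, 0 of the 10 main probe sets passed in ad libitum dogs, where 0.498%, 6.73% and 0.802% of all probe sets passed.

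The second SLC27A1 probe set measured 3.66, 4.29, 3.65, 3.27 and 3.67 at week 24 in ad libitum dogs 2, 5, 6, 7 and 8, against 4.75, 4.53, 6.51, 6.26 and 5.47 at week 0. All 5 were lower, and 4 of the 5 week-24 values were below the background limit of 4. The fitted change was -1.80 (SE 0.50, adjusted p = 0.0313), a size set mostly by values that are not above background and so not a measured fold. The third probe set was above 4 on 5 of the 45 arrays only and changed by -0.45 (adjusted p = 0.332). In control dogs the main probe set measured 7.06, 7.06, 7.53 and 7.53 at week 24 in dogs 1, 3, 4 and 9, against 7.59, 8.12, 6.78 and 7.56 at week 0. Dog 4 was higher and the other 3 lower, and the change was -0.19 (adjusted p = 0.793).

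Between the groups at week 24, the SLC27A1 difference was -0.91 (SE 0.33, 95% interval -1.59 to -0.23) and did not pass (adjusted p = 0.0955). Ad libitum dog 5 lay within the control range and the other 4 below it, and without dog 5 the difference was -1.11 and passed (adjusted p = 0.0251). The difference between the 2 groups' changes from week 0 was -0.98 (adjusted p = 0.488). Week 24 is also the only week of the sixth laboratory batch, so in a change from week 0 the week and the batch cannot be told apart. At week 0 the ad libitum arrays with muscle transcripts averaged 7.44 (n = 3) and those without 7.74 (n = 2). Without the muscle arrays the change was -1.58 (adjusted p = 0.157).

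**Figure D2:**
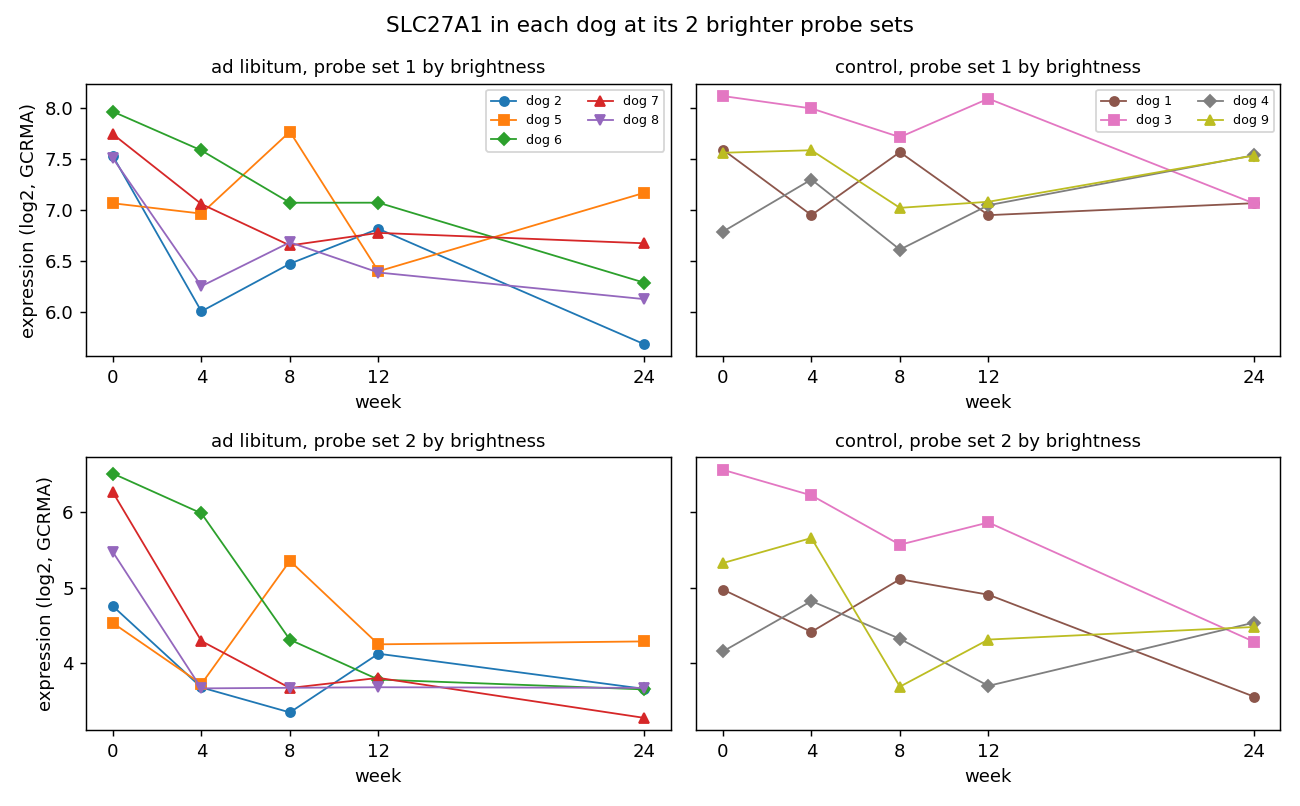
Log2 expression of SLC27A1 by week at its 2 brighter probe sets (rows), 1 line per dog, ad libitum dogs (n = 5) left of control dogs (n = 4). In the top row dogs 2, 6, 7 and 8 end between 5.68 and 6.67, below their week-0 values, while dog 5 ends at 7.16 and the control dogs at 7.06 to 7.53.

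SLC27A4, which encodes FATP4, was among the steadier genes, with a range of 5.39 to 7.53. At week 24 it measured 6.37, 6.37, 6.37, 6.52 and 5.93 in ad libitum dogs 2, 5, 6, 7 and 8, against 6.75, 6.51, 6.28 and 6.73 in control dogs 1, 3, 4 and 9. The groups overlapped, and the difference was -0.26 (95% interval -0.75 to 0.23, adjusted p = 0.561). At week 8 it was 0.36, or 0.18 without the doubted arrays.

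FABP4, the cytosolic carrier that marks fat cells, hardly varied in signal at its 1 probe set. It stayed between 15.35 and 16.09 on all 45 arrays, and only 3.14% of the probe sets tested had a smaller SD. The highest value of any probe set on these arrays was 17.51. The main probe set of FABP5, about as bright, also had a small SD (0.27), against 1.20 at its dimmer probe set. Whether so bright a signal hides changes in the FABP4 transcript was not tested. At week 24 it averaged 16.04 ± 0.07 in ad libitum dogs (SD, n = 5) and 15.89 ± 0.11 in control dogs (SD, n = 4), a difference of 0.15 (95% interval -0.12 to 0.41, adjusted p = 0.534).

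FABP5, the second carrier, had a main probe set that ranged from 15.17 to 16.32, with a smaller SD in 8.91% of the probe sets tested, and another that ranged from 3.48 to 8.95. Their correlation over the 45 arrays was 0.63. At week 24 the main probe set averaged 15.83 ± 0.40 in ad libitum dogs (SD, n = 5) and 15.57 ± 0.41 in control dogs (SD, n = 4), a difference of 0.26 (adjusted p = 0.407), and the other differed by 0.39 (adjusted p = 0.794). At the main probe set the 2 control arrays with muscle transcripts read 15.17 and 15.26, and the other 2 read 15.88 and 15.98. Its difference ran from -0.09 to 0.29 over 10 alternative fits that left no single dog out. At week 8 the other probe set was lower in all 5 ad libitum dogs than in any control dog, with a difference of -1.09 that did not pass (adjusted p = 0.320). The doubted arrays, labelled ad libitum dog 5 and control dog 9, read 6.68 and 7.69 there, and without them the difference was -1.11 (adjusted p = 0.566). Groups that did not overlap were found for 3.76% of all probe sets in that week, and the main probe set differed by -0.04, or -0.12 without the doubted arrays.

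ACSL1, the chief long-chain acyl-CoA synthetase of fat cells, was the 1 gene whose main probe set passed between the feeding groups at week 24. Its main probe set measured 15.03, 13.24, 14.78, 15.13 and 14.62 in ad libitum dogs 2, 5, 6, 7 and 8, against 12.83, 12.44, 13.25 and 13.16 in control dogs 1, 3, 4 and 9. Ad libitum dog 5 lay beside the highest control dog, and the other 4 lay above all the controls. The mean was 14.56 ± 0.76 in ad libitum dogs (SD, n = 5) and 12.92 ± 0.37 in control dogs (SD, n = 4), a difference of 1.64 (SE 0.41, 95% interval 0.81 to 2.48, 3.12-fold, adjusted p = 0.0167 by limma). Without ad libitum dog 2, 6 or 7 the main probe set missed the threshold, with differences of 1.50 to 1.59 and adjusted p-values of 0.0599 to 0.0961.

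The other 2 ACSL1 probe sets showed a larger difference. The second measured 12.04, 9.39, 11.93, 12.24 and 11.35 in ad libitum dogs, against 8.38, 8.10, 9.03 and 9.34 in control dogs, a difference of 2.68 (SE 0.57, 6.39-fold, adjusted p = 0.00624). The third measured 11.85, 8.96, 11.93, 12.18 and 11.16 in ad libitum dogs, against 7.77, 7.41, 8.51 and 8.91 in control dogs, a difference of 3.06 (SE 0.67, 8.37-fold, adjusted p = 0.00728). At both probe sets the groups did not overlap, though dog 5 lay only just above the highest control dog. Non-overlapping groups with the ad libitum dogs higher were found for 5.41% of all probe sets. The 3 probe sets followed each other closely over the arrays, with correlations of 0.97 to 0.99, so they are repeated measurements of 1 transcript and not independent evidence. The second passed without any 1 of the 9 dogs, at 2.47 to 3.18, and the third did too, at 2.82 to 3.63. Among 10 other alternative settings each of them passed in 7.

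The changes from week 0 ran in opposite directions in the feeding groups, though neither passed. Ad libitum dogs 2, 6, 7 and 8 were higher by 1.04 to 1.97 at the main probe set, and dog 5 was lower (-0.44). The change of dog 2 rests on the week-0 array that matched its labelled dog poorly. The 4 control dogs were all lower, with changes from -1.01 to -0.14. The fitted change was 1.00 in ad libitum dogs (SE 0.39, adjusted p = 0.129) and -0.53 in control dogs (SE 0.44, adjusted p = 0.476). The other 2 probe sets gave 1.53 and 1.72 in ad libitum dogs (adjusted p = 0.0932 and 0.108) and -1.10 and -1.41 in control dogs (adjusted p = 0.259 and 0.211). In control dogs the change from week 0 passed for 0 of the 10 genes, against 7.92% of all probe sets.

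The difference between the changes of the 2 groups, which takes the week-0 difference into account, was 1.53 for ACSL1 (SE 0.59, 95% interval 0.34 to 2.73) and did not pass (adjusted p = 0.368). In that comparison 0.022% of all probe sets passed. At earlier weeks the ACSL1 groups overlapped. At week 12 the main probe set measured 14.31, 13.16, 13.87, 13.84 and 14.02 in ad libitum dogs, against 14.10, 12.14, 12.56 and 12.64 in control dogs 1, 3, 4 and 9. Control dog 1 stood among the ad libitum dogs, and the difference was 0.96 (adjusted p = 0.451). At weeks 0, 4 and 8 the differences were 0.11, 0.30 and 0.05, and the last was 0.39 without the doubted arrays.

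**Figure D3:**
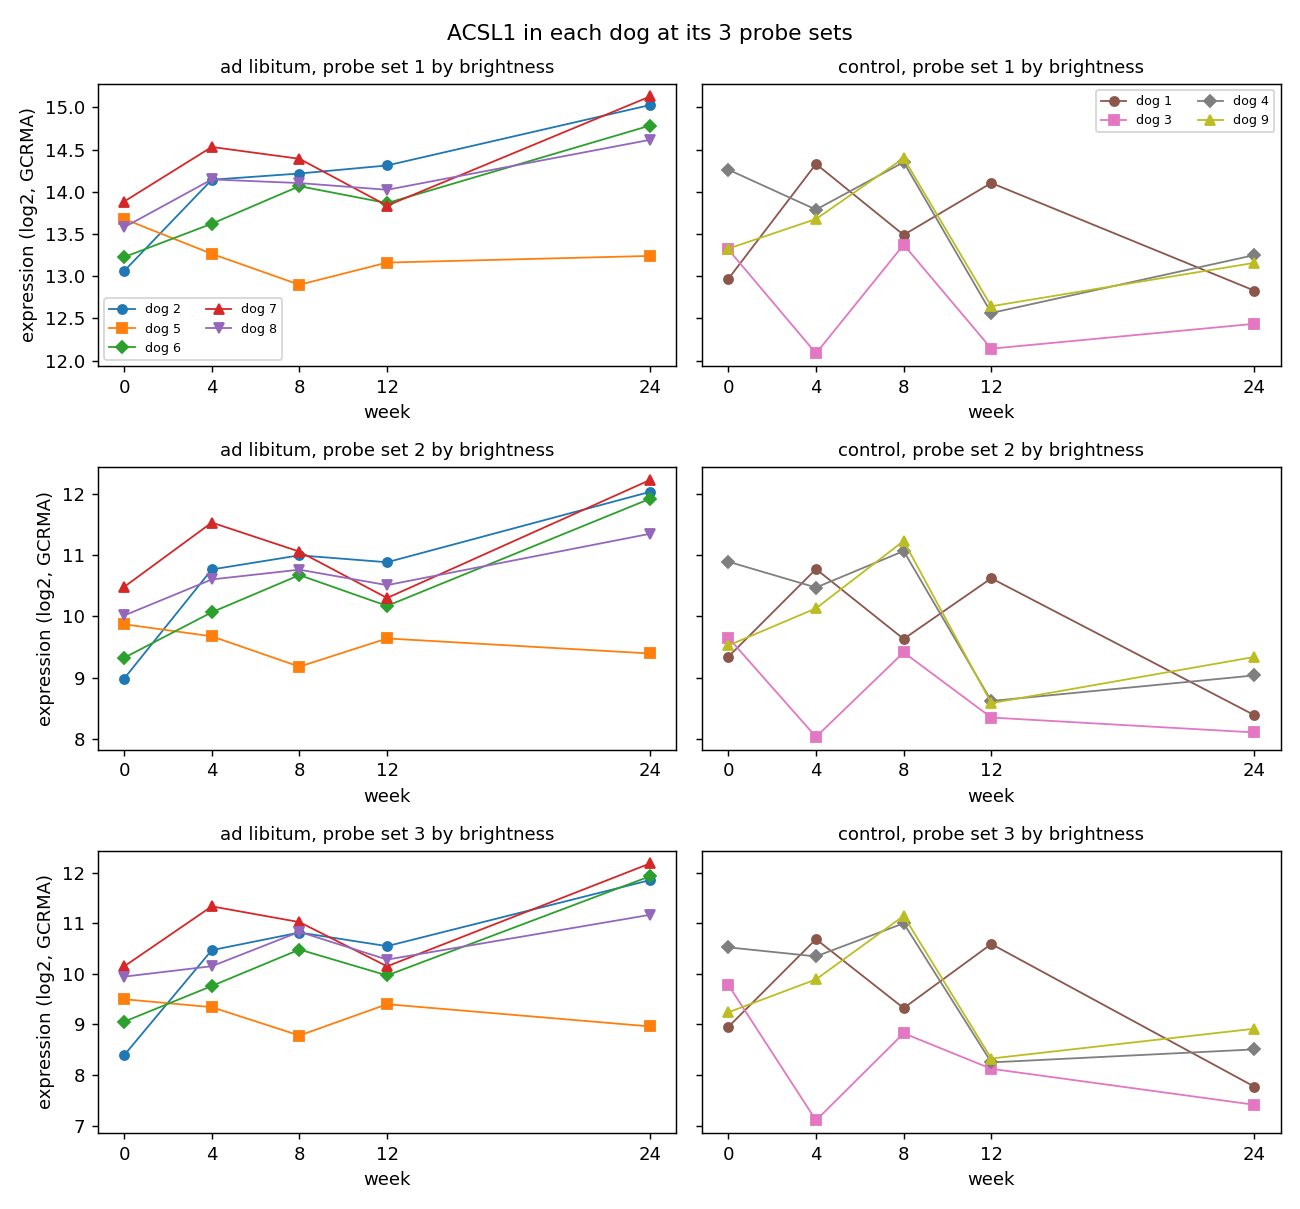
Log2 expression of ACSL1 by week at its 3 probe sets (rows, the main one on top), 1 line per dog, ad libitum dogs (n = 5) left of control dogs (n = 4). At week 24 in the top row dogs 2, 6, 7 and 8 lie between 14.62 and 15.13, dog 5 at 13.24 and the control dogs between 12.44 and 13.25.

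Some measures of tissue makeup moved with ACSL1 over the 45 arrays. The actin measure of RNA quality correlated with ACSL1 at r = -0.15 over the same arrays, a value that does not describe week 24 alone. At week 24 that measure averaged 3.51 in ad libitum and 4.79 in control dogs. The mean over the 7 adipocyte markers at week 24 was 13.32, 10.80, 13.16, 13.13 and 12.92 in ad libitum dogs 2, 5, 6, 7 and 8, against 12.04, 10.45, 11.30 and 12.00 in control dogs 1, 3, 4 and 9. Dog 5, the ad libitum dog lowest in ACSL1, was also the lowest of its group in these markers, and control dog 3 was the lowest of the controls in both. Over all 45 arrays, which share 9 dogs and 6 batches, ACSL1 correlated with the adipocyte marker mean at r = 0.62. It correlated with the macrophage mean at -0.54, with the fibroblast and preadipocyte mean at -0.42 and hardly with the endothelial mean (-0.10). Dog 5 also had the highest macrophage mean of its group at week 24, at 10.64. The part of any of these markers in the ACSL1 difference was not tested. With the actin measure of RNA quality in the fit the difference was 1.55 (adjusted p = 0.196), and without the muscle arrays it was 1.64 (adjusted p = 0.169). None of the 3 ACSL1 probe sets passed in either fit, where 0.128% and 0.282% of all probe sets passed.

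ACSL3, the synthetase of the endoplasmic reticulum and of growing lipid droplets, had its largest difference at week 8, short of the threshold. Its main probe set then measured 8.02, 6.81, 6.82, 8.13 and 8.46 in ad libitum dogs 2, 5, 6, 7 and 8, against 8.49, 9.11, 10.02 and 8.16 in control dogs 1, 3, 4 and 9. Among the ad libitum dogs only dog 8 lay above the lowest control dog. The difference was -1.34 (SE 0.47, 95% interval -2.29 to -0.39) and did not pass (adjusted p = 0.0896). The other 4 probe sets gave -1.25, -0.75, -1.30 and -1.52, with adjusted p-values of 0.0584, 0.240, 0.177 and 0.101, and -1.23, -1.03, -0.97 and -1.41 without the doubted arrays. With the doubted arrays of dogs 5 and 9 left out the main probe set differed by -1.09 (adjusted p = 0.346). The actin measure of week 8 was 1.74 ± 0.27 in ad libitum dogs (SD, n = 5) and 2.39 ± 0.61 in control dogs (SD, n = 4), and with it in the fit the difference was -1.19. Without control dog 1 or ad libitum dog 8 the main probe set passed, at -1.55 (adjusted p = 0.0492) and -1.45 (adjusted p = 0.0416).

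At week 24 ACSL3 measured 9.22, 9.63, 9.53, 9.41 and 9.69 in ad libitum dogs, against 8.89, 9.79, 9.66 and 9.78 in control dogs. The groups lay on top of each other, with a difference of -0.03 (95% interval -0.98 to 0.91, adjusted p = 0.978). The other 4 probe sets differed by -0.37, -0.79, 0.08 and 0.03, and none passed. Both groups were higher than at week 0, by 1.04 in ad libitum dogs (adjusted p = 0.168, 5 of 5 dogs) and by 1.08 in control dogs (adjusted p = 0.167, 4 of 4 dogs). Neither change passed, and both are also a change of batch.

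ACSL4, which prefers arachidonic acid, varied widely, from 3.31 to 8.58, and was above background on 42 of 45 arrays. At week 8 it measured 6.17, 5.01, 3.31, 6.63 and 5.78 in ad libitum dogs, against 5.96, 7.88, 7.27 and 6.50 in control dogs. Dog 6 was the lowest of all arrays, while dogs 2 and 7 lay within the control range. The difference was -1.59 (SE 0.69, adjusted p = 0.153), and -1.07 without the doubted arrays of dogs 5 and 9 (adjusted p = 0.566). At week 24 it was 0.69 (adjusted p = 0.587), with 5 of 5 ad libitum dogs above the control mean.

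**Figure D4:**
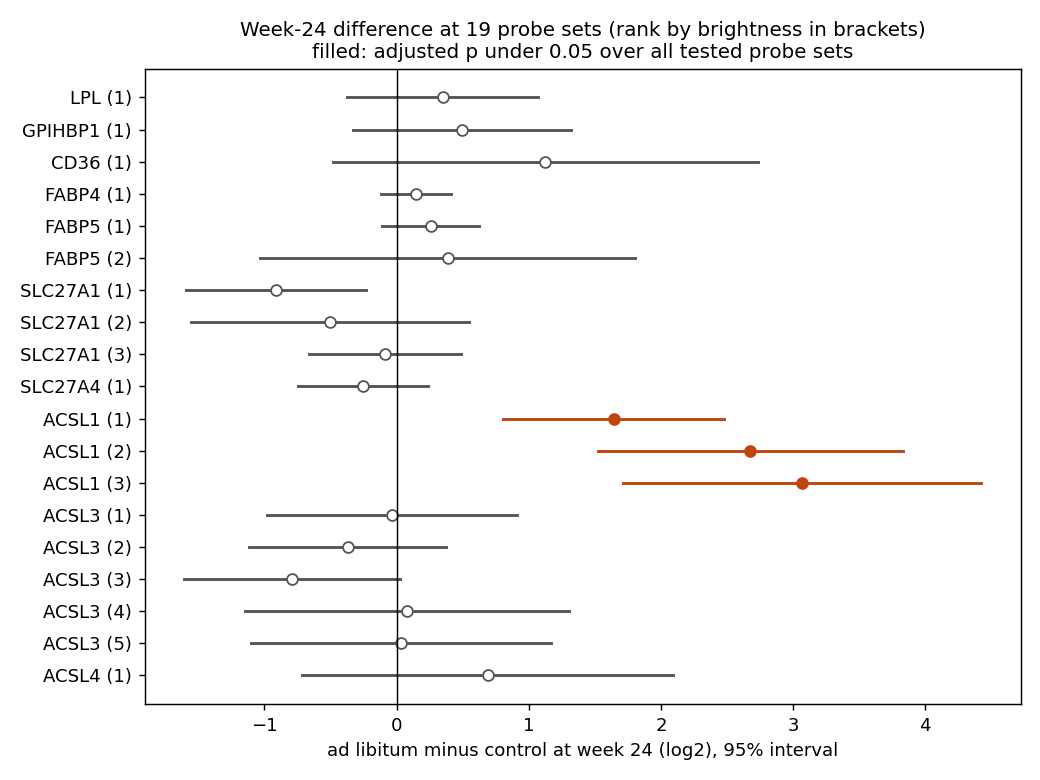
Difference in log2 expression at week 24, ad libitum minus control dogs, for each of the 19 probe sets, with its 95% interval from the fit over all probe sets. The 3 ACSL1 probe sets lie at 1.64, 2.68 and 3.06 with intervals above 0, the main SLC27A1 probe set lies at -0.91, and most of the others lie across 0.

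Beyond these genes, 15 of 29 other genes of fatty acid transport, binding and activation were above background, and 0 passed at week 24, with a median difference of 0.09. The nearest to the threshold was ACOT13, a thioesterase that releases fatty acids from coenzyme A, at 1.32 (adjusted p = 0.052). ACSL5, another synthetase, differed by -0.13 (adjusted p = 0.807), and FATP3, encoded by SLC27A3, by -0.34 (adjusted p = 0.578). CAV1, the coat protein of caveolae, differed by 0.05 (adjusted p = 0.932).

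Of 14 listed genes that use activated fatty acids, 12 were above background. At week 24, 3 of the 12 were higher in ad libitum dogs and 0 lower, where 3.76% of all probe sets passed as higher and 1.69% as lower, and the median difference was 0.64. All 3 belong to triglyceride assembly. DGAT2, which adds the last fatty acid, averaged 13.99 in ad libitum and 11.62 in control dogs (difference 2.37, SE 0.33). AGPAT2, which adds the second fatty acid, averaged 12.11 in ad libitum and 10.40 in control dogs (difference 1.71, SE 0.40). GPAM, which adds the first, averaged 8.04 in ad libitum and 4.01 in control dogs, the control mean at the background limit (difference 4.03, SE 0.88). GPAM lost the call without ad libitum dog 2 (adjusted p = 0.0534), and AGPAT2 without dog 2 or control dog 3 or 4 (adjusted p = 0.0607 to 0.0671). With the actin term both lost it (adjusted p = 0.185 for GPAM and 0.220 for AGPAT2). With each week fitted alone all 3 missed the threshold, DGAT2 and GPAM with an adjusted p of 0.0652 each and AGPAT2 with 0.114. The mitochondrial entry genes were not called, among them CPT1A at -0.15 and CPT2 at 0.74. In control dogs AGPAT2, DGAT1 and DGAT2 were lower at week 24 than at week 0, by changes of -1.65, -1.96 and -1.61, where 4.71% of all probe sets passed as lower, and those are also changes of batch. All 3 lost the call with the actin term (adjusted p = 0.539, 0.382 and 0.174), without the muscle arrays (0.499, 0.487 and 0.267) and without control dog 3 (0.159, 0.0966 and 0.0734), and AGPAT2 also without control dog 9 (0.0771).

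Of 10 transcription factors of the pathway, 6 were above background. SREBF1, the regulator of fatty acid synthesis genes, was the 1 that passed at week 24, where 3.76% of all probe sets passed as higher. SREBF1 averaged 5.74 in ad libitum and 4.07 in control dogs, the control mean at the background limit (difference 1.67, SE 0.51). Its call held in 5 of 19 other settings. PPARG, the master regulator of fat cells, differed by 0.78 (adjusted p = 0.236) and PPARA by 1.76 (adjusted p = 0.077). Of the genes of these lists called at week 24, only DGAT2 (difference 2.05, adjusted p = 0.00948) kept its call without the muscle arrays.

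The 10 genes did not vary as 1 block. Over the 45 arrays the closest pair was CD36 and ACSL4 (r = 0.85), followed by CD36 and ACSL3 (0.81), CD36 and FABP4 (0.79) and ACSL3 and ACSL4 (0.76). GPIHBP1 and FABP5 formed another close pair (0.74). SLC27A1 ran opposite to ACSL1 (r = -0.67), and CD36 opposite to SLC27A4 (-0.62). LPL and its anchor GPIHBP1 were only weakly related (0.22). With the mean of each feeding group and week removed, CD36 still correlated with ACSL4 at 0.81 and with ACSL3 at 0.79. The arrays share dogs and batches, so these values are descriptions and carry no test.

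**Figure D5:**
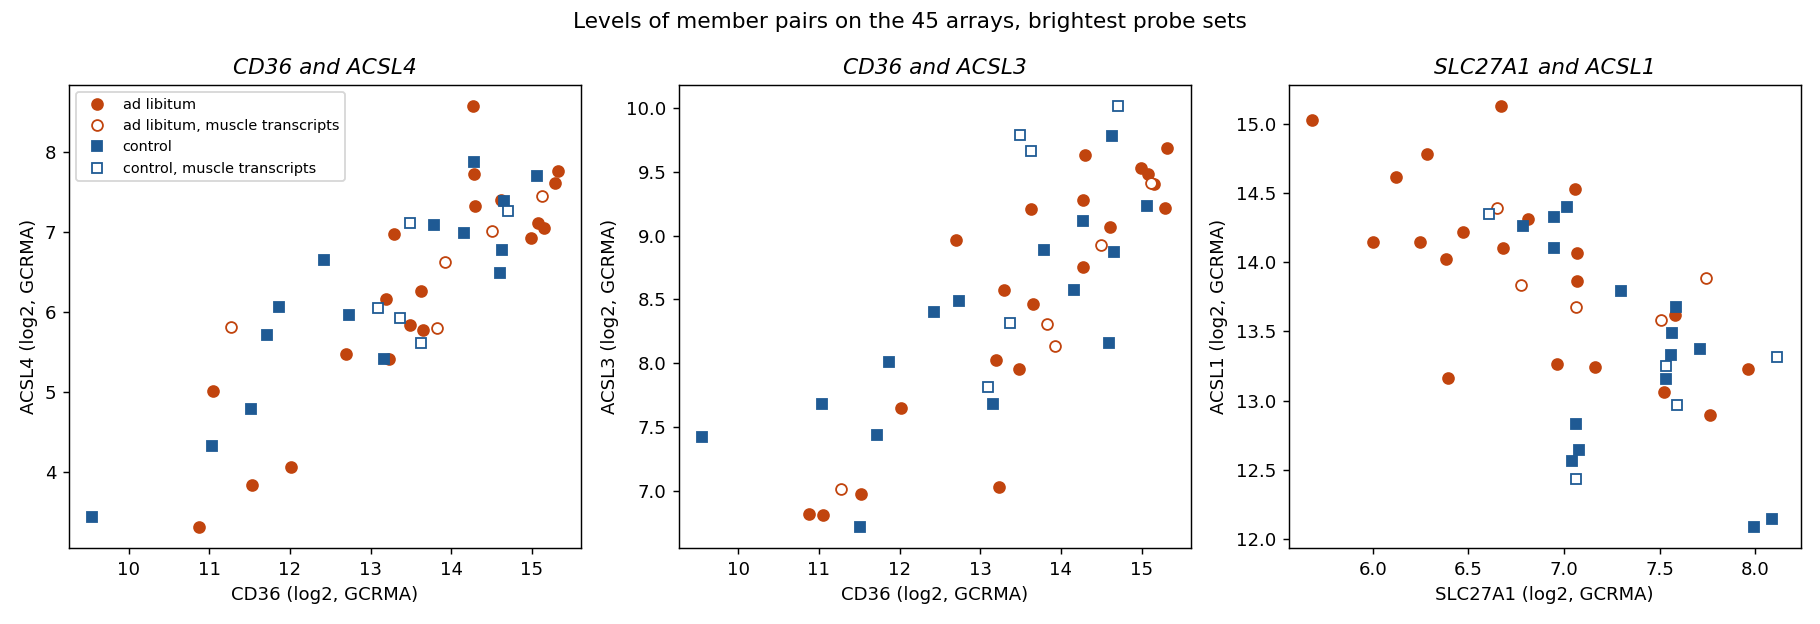
Log2 expression of CD36 against ACSL4 and ACSL3, and of SLC27A1 against ACSL1, 1 point per array (45 arrays of 9 dogs), with ad libitum and control dogs in separate colours and open symbols for the 10 arrays that carry muscle transcripts. CD36 climbs with ACSL4 (r = 0.85) and ACSL3 (0.81), and SLC27A1 declines as ACSL1 climbs (-0.67).

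Other genes followed some of the 10 more closely still, among 9103 genes ranked by correlation over the 45 arrays. GPIHBP1 was most like ABLIM3 (r = 0.91), COMMD9 (0.89) and MLXIPL (0.89), the last a carbohydrate-responsive transcription factor. It also correlated with the mean of the endothelial markers (0.77) and of the adipocyte markers (0.60). FABP5 was most like CIDEC (0.88), a lipid droplet protein, ESAM (0.86), an endothelial adhesion molecule, and SLC43A3 (0.86). ACSL1 was most like AKTIP (0.88), ETNPPL (0.86) and PEX3 (0.85), a peroxisome assembly factor. LPL was most like TMEM135 (0.86), AUH (0.85) and DEPDC7 (0.80). Without the 10 muscle arrays these correlations were 0.79 to 0.92.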

How the data were processed

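The authors deposited 1 value per probe set and array, read here as log2 from the range of 0.42 to 17.51. They come from GCRMA per the submitters' processing notes. Its version, the log base and any batch correction were not given in the sources used here. Arrays hold no counts, so their number limits the precision. Left out were 111 control probe sets, and a probe set was tested when above 4 on at least 4 of 45 arrays, which kept 22690 of 42924 (52.9%).

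The model was run in limma 3.58.1 (R 4.3.3, statmod 1.5.0) and gave each probe set 10 means, for the 2 feeding groups at 5 weeks, a term for laboratory batches 1 to 5 and dog as a block (correlation 0.00562, 31 residual degrees of freedom). Differences are those of this fit. Adjusted p-values are limma's with Benjamini-Hochberg adjustment over all 22690 probe sets, with a threshold of 0.05. Dogs are paired across weeks by the animal number in the labels. The fit was tested on simulated data with independent noise and no dog, batch or muscle effects, so that test does not cover those.

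Symbols are those of the platform table, and all 10 genes matched RefSeq by gene ID. The genes, the lists and the rule for naming were chosen with earlier results of these data known. The rule names every probe set of the 10 genes, the list members past the threshold up to 4 of each sign at week 24, and for LPL, GPIHBP1, FABP5 and ACSL1 the 3 genes most correlated over the arrays. Other list members named were chosen after their values were seen. Alternatives changed the block, batch term, filter, normalization, RNA quality, muscle arrays, probe set rule and dogs.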

Additional observations from a re-analysis of the deposited data

Results flagged for a closer look

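Of 190 groups of 4 or 5 dogs tested over the 19 probe sets, 17 had 1 dog far from the rest by Dixon's criterion, and chance gives about 1 in 20. Ad libitum dog 5 stood apart 6 times. At week 8 it was low in all 3 ACSL1 probe sets, at 12.90, 9.18 and 8.78, on the array that matched dog 9. At week 24 it was low at 13.24 in ACSL1, at 7.90 in GPIHBP1 and at 15.92 in FABP4. Its adipocyte marker mean of 10.80 was also the lowest of its group at week 24, and the part of this in those values was not tested.

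Control dog 1 stood apart 4 times. At week 12 it was high at 10.63 and 10.59 in the ACSL1 probe sets other than the main one and at 9.23 in ACSL3, and at week 24 it was low at 8.89 in ACSL3. Ad libitum dog 8 was low at week 0, at 5.81 in ACSL4 and 4.92 in the fourth ACSL3 probe set, and low at week 24 in SLC27A4, at 5.93. Ad libitum dog 2 was high at week 12, at 14.52 in LPL and 6.90 in SLC27A4. Ad libitum dog 6 was high at week 4 in the second SLC27A1 probe set, at 5.98. Control dog 3 was high at week 12 in SLC27A1, at 8.09.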

How the results depend on the processing

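Each count of genes called was recomputed under 20 alternatives, and no called difference changed sign. At weeks 0, 4 and 12, and for the change in control dogs, it was 0 in 20 of 20. At week 24 the 1 call, ACSL1, became 0 with the actin term, without the muscle arrays and with each week fitted alone (adjusted p = 0.0722), and 0 to 2 when 1 dog was left out, with 2 without dog 5. For the change in ad libitum dogs the 1 call, SLC27A1, became 0 with no filter (adjusted p = 0.0743) and without the muscle arrays, and 0 to 1 when 1 dog was left out. The week-8 count was 0 to 1 without 1 dog, and the joint test 0 to 2, with 2 without control dog 1. The alternatives for list genes were chosen after seeing the data.

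The dogs are paired across weeks, and dog was already the block. With no replicate block, ACSL1 differed by 1.64 (adjusted p = 0.017) and SLC27A1 changed by -1.16 (adjusted p = 0.033). With dog as a fixed term the SLC27A1 change was -1.18 (adjusted p = 0.0153), and the second ACSL1 probe set changed by 1.55 in ad libitum dogs and passed (adjusted p = 0.0401). The number of probe sets called at week 24, 1238, became 29 with the actin term, 64 without the muscle arrays, 48 with each week alone and 3097 without dog 5. The deposited values carry no per-probe detection call, so levels near 4 are the least certain.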
